A study of Mus musculus with 2 samples.

Results

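Isolated very short CTCF regions are stretches of at most 75 bp, in a deposited list of CTCF-bound positions, that have no other listed region within 1000 bp on either side. They were found by joining adjoining 25-bp windows of the list into regions on autosomes 1 to 19 and keeping the regions that met both limits. This gave 2481 regions out of 50386 on the autosomes, or 4.92% (95% exact binomial interval 4.74% to 5.12%). The whole list held 51661 regions. Width and isolation, both read from the same list, chose the members. All values below therefore describe 1 library, with no replicate and no test between conditions, and the intervals cover counting error only, with regions taken as independent.

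The list came from chromatin immunoprecipitation followed by sequencing with an anti-CTCF antibody in CD4+CD8+ (DP) thymocytes of C57BL/6 mice aged 4 to 8 weeks. The mice were Rag1 -/-, lacking a recombinase that assembles antigen receptor genes, and carried a TCRbeta transgene that was already rearranged. Their thymocytes can pass the beta-chain checkpoint and reach the DP stage while the endogenous receptor loci stay unrearranged. An input library of the same cells, also labelled in the series, was not analysed here, and the number of mice behind the CTCF library is not given in the labels. The file lists positions only, with no height, read count or score, so depth is unknown, the strength of binding at a region cannot be given and the labelled cell type cannot be checked against marker genes.

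CTCF is a DNA-binding protein with an array of zinc fingers that recognises a long, oriented motif. Together with the ring-shaped cohesin complex it anchors chromatin loops and marks boundaries between domains, and in lymphocytes it shapes the antigen receptor loci before and during their rearrangement. A strong site usually gives a peak much broader than its motif in an experiment of this kind, set by the length of the sonicated fragments. A listed stretch of 1 to 3 windows is narrow for such a peak.

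Members were most often 25 bp wide and were about as frequent at 50 as at 75 bp. There were 947 of 25 bp (38.2%, interval 36.3% to 40.1%), 785 of 50 bp (31.6%, 29.8% to 33.5%) and 749 of 75 bp (30.2%, 28.4% to 32.04%). Regions just outside the width limit were about as frequent as members of 50 or 75 bp, with 754 isolated regions of 100 bp. The steep excess of the narrowest regions in the list as a whole, 3446 of 25 bp, 2127 of 50 bp and 1593 of 75 bp, thus lay mostly among regions that were not isolated.

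The isolation rule removed most very short regions. Of 7166 autosomal regions of at most 75 bp, 34.6% (33.5% to 35.7%) were isolated, compared with 79.4% (79.0% to 79.8%) of the wider regions. Up to 600 bp the isolated share was mostly higher at greater widths, from 27.5% at 25 bp to 36.9% at 50 bp, 47.0% at 75 bp and 55.4% at 100 bp to 87.1% at 500 to 600 bp. It was lower again in wider regions, at 81.1% over 600 and up to 700 bp, 69.97% over 700 and up to 1000 bp and 73.5% above that. The 4685 very short regions that were not isolated mostly lay close to another region, 3745 of them within 100 bp. Few lay near the isolation limit. At 525 to 1000 bp from a neighbour, just inside the excluded zone, there were 195 very short regions. Over the wider span from 1025 to 2000 bp there were 235 members.

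**Figure D1:**
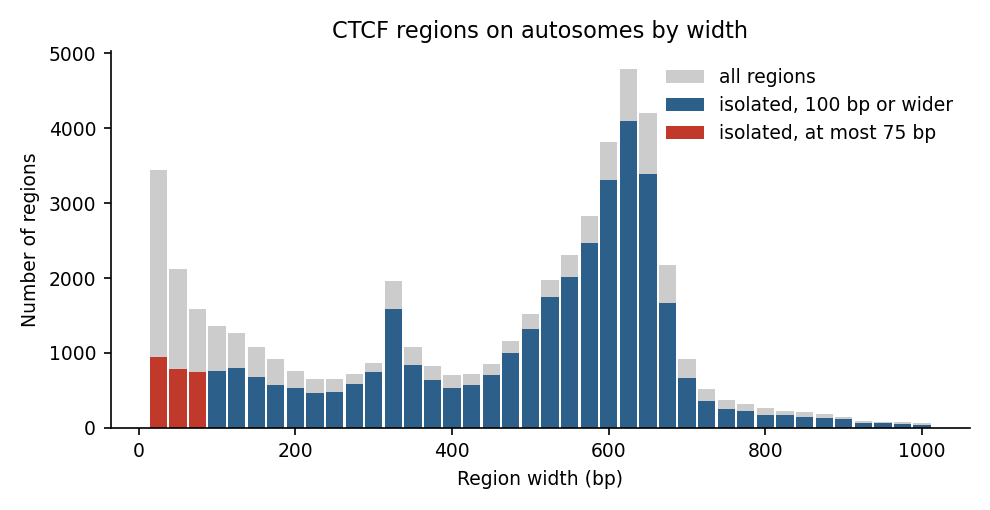
Number of autosomal CTCF regions (vertical axis) by width in bp (horizontal axis, up to 1000 bp), with all regions in grey, isolated regions of 100 bp or wider in blue and isolated regions of at most 75 bp in red. The red bars (947, 785 and 749) are highest at 25 bp and nearly level from 50 bp into the 754 isolated regions of 100 bp. The grey bars climb to 3446 at 25 bp.

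Isolated very short regions followed the density of wide CTCF regions across the genome. Counted in 1-Mb bins, their frequency rose in each step from bins without any region of 500 bp or more, here called a wide region, to bins with many. The 490 bins with no wide region held 42 members, or 0.0857 per Mb (exact 95% Poisson interval 0.0618 to 0.116). Bins with 1 to 5 wide regions held 0.364 per Mb (0.316 to 0.417), those with 6 to 10 held 0.851 (0.762 to 0.948) and those with 11 to 20 held 1.40 (1.30 to 1.501). The 474 bins with 21 or more wide regions held 2.36 members per Mb (2.23 to 2.51). None of these intervals overlapped. The richest class, 19.1% of bins, thus contained 1121 members (45.2%), and the poorest, 19.8% of bins, contained 1.69% of members.

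The rate in the richest bins was 27.6 times that in the bins without a wide region (20.3 to 38.5). Rich bins offer less length that is over 1000 bp from every region wider than 75 bp. Per Mb of such length, the ratio was 30.9 (22.7 to 43.2). Of the 490 bins without a wide region, 337 held no region of any width, and how much of their length can be aligned to was not examined. Among bins that held at least 1 region, the ratio was 8.62, a setting that removes only bins without members. With isolation distances of 5000 and 10000 bp, which leave still less room in rich bins, it was 17.4 and 10.1.

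Isolated regions of 100 to 475 bp, a class of intermediate width formed after the data were seen, were distributed over these bins in nearly the same way. There were 11474 of them, and their rate in the richest bins was 28.1 times that in the poorest (24.3 to 32.7). Members made up 18.5% of all isolated regions under 500 bp in bins without a wide region (13.7% to 24.2%, 227 regions). The share was 16.5% (14.5% to 18.6%) in bins with 1 to 5 wide regions, 17.3% (15.6% to 19.04%) with 6 to 10, 17.7% (16.6% to 18.9%) with 11 to 20 and 18.2% (17.3% to 19.2%) with 21 or more. These intervals all overlapped. Among bins with a wide region the share was slightly higher at each step, from 16.5% to 18.2%, and a trend with the density of wide regions was not tested. Relative to the wide regions themselves, members became less frequent as the bins grew richer, from 13.4 per 100 wide regions in bins with 1 to 5 to 7.62 in bins with 21 or more. This ratio is limited by its design, because bins were grouped by its denominator and isolation leaves less room in rich bins. It was not particular to members. Isolated regions of 100 to 475 bp numbered 1055 beside 1549 wide regions in the former bins and 5031 beside 14717 in the latter.

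**Figure D2:**
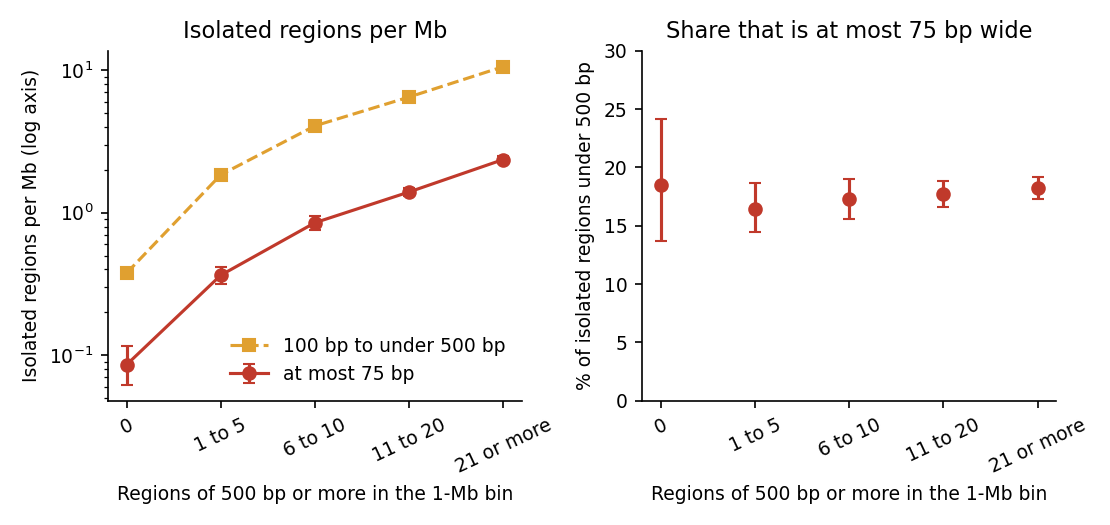
Left, isolated regions per Mb (log axis) in 1-Mb bins grouped by their number of regions of 500 bp or more, for regions of at most 75 bp (red, bars are exact 95% Poisson intervals) and of 100 to 475 bp (orange, without intervals). Right, the percentage of isolated regions under 500 bp that are at most 75 bp wide, with exact 95% binomial intervals. The left curves climb in parallel and the right points stay between 16.5% and 18.5%.

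Members were found in 1245 of 2481 bins, or 50.2%, and the number of bins happened to equal the number of members. A single member lay in 588 bins, 2 to 4 members in 593 and 5 or more in 64 bins, which together held 353 members. Of the 1245 bins with a member, 40 had no wide region, and in 19 bins the member was the only region. Conversely, 786 bins with a wide region had no member.

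The unevenness of a class over bins was summarised as its excess variance, the variance minus the mean, divided by the squared mean. It is 0 on average for regions placed at random and independently, at the same rate in each bin. It does not change when a class is thinned at random, so that rare and frequent classes can be set side by side. It was 0.798 for members, 0.741 for isolated regions of 100 to 475 bp and 0.932 for isolated wide regions. Very short regions with a close neighbour were more uneven, at 1.56, but that class was chosen for lying near other regions. Conversely, the isolation rule itself limits how many members can fall in a crowded bin, so this contrast was partly set by the rule. Between members and all isolated regions over 75 bp (0.855) the order depended on the limits, because the excess variance of members exceeded that of the wider ones when only regions of at most 25 or 50 bp were taken (ratios of 1.24 and 1.04) and was 1.002 times it with an isolation distance of 5000 bp, against 0.933 under the rule as given. Across the 2481 bins, the number of members had a Spearman's rho of 0.646 and a Pearson's r of 0.614 with the number of wide regions. These correlations are descriptions, as both counts come from 1 library and share its depth.

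The 3 bins with most members were all rich in wide regions. The first, on chromosome 4 (129000001 to 130000000, mm9), held 10 members, 36 wide regions and 80 regions in all. The second, on chromosome 9 (114000001 to 115000000), held 9 members among 69 regions, and the third, on chromosome 7 (52000001 to 53000000), held 8 beside 55 wide regions. Inside the chromosome 4 bin the members did not form a single group. The first lay at 129108811 to 129108835 and the last at 129723111 to 129723135. Their nearest regions were 1.05 to 15.5 kb away, and their nearest wide regions 1.05 to 50.9 kb. Of the bins without a wide region, 2 held 2 members each, on chromosome 11 (92000001 to 93000000) and chromosome 12 (18000001 to 19000000), and 38 held 1.

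The distance from a member to the nearest wide region had a median of 16.1 kb (interval from binomial ranks 15.2 to 17.4 kb), with quartiles of 6.40 and 38.7 kb, measured from edge to edge. The rule bars distances of up to 1000 bp, so regions that obey the same isolation rule were used for comparison. Isolated regions over 75 bp had a median of 14.2 kb (13.98 to 14.5 kb), and isolated wide regions one of 13.3 kb (13 to 13.6 kb), with the region itself left out. Members thus lay 1.14 times as far from a wide region as the isolated regions over 75 bp did. The intervals did not overlap. On 17 of 19 autosomes the median of members was above that of isolated wide regions.

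Against isolated regions of 100 to 475 bp no such difference was seen. Their median was 16.3 kb (15.8 to 16.8 kb), their quartiles were 6.5 and 40.6 kb, and the median of members was above theirs on 7 of 19 autosomes. The order of members and comparison class was thus the reverse of that with all isolated regions over 75 bp, with a ratio of 0.988. Members within 10 kb of a wide region made up 35.9% (34.0% to 37.8%), and those beyond 100 kb 9.35% (8.23% to 10.6%). For isolated regions of 100 to 475 bp these shares were 36.0% and 9.90%, and for isolated wide regions 41.7% and 5.66%.

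**Figure D3:**
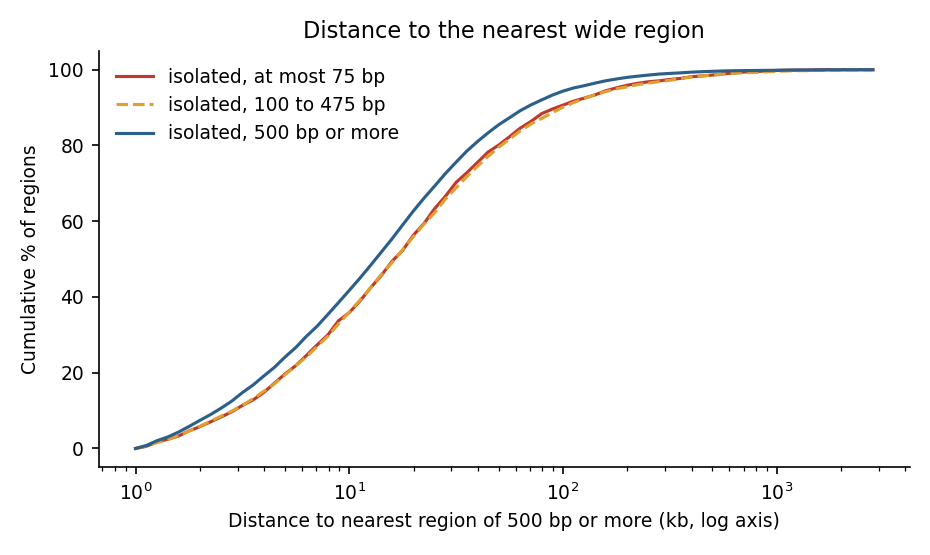
Cumulative percentage of isolated regions (vertical axis) by distance to the nearest region of 500 bp or more in kb (log axis), for regions of at most 75 bp (red), of 100 to 475 bp (orange, dashed) and of 500 bp or more (blue). The red and orange curves lie on each other, with medians of 16.1 and 16.3 kb, and the blue curve is shifted to shorter distances, with a median of 13.3 kb.

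Within the members, distance did not follow width. The median was 15.9 kb (14.2 to 18.2 kb) at 25 bp, 16.7 kb (14.8 to 19.6 kb) at 50 bp and 15.8 kb (14.5 to 18.3 kb) at 75 bp. It remained at 15.2 to 17.8 kb in every class of isolated regions from 100 to 475 bp, and was 15.6 kb at 500 to 600 bp. It was lower only in wider classes, at 12.1 kb (11.7 to 12.4 kb) for widths over 600 and up to 700 bp and 10.0 kb (9.23 to 10.6 kb) for widths over 700 and up to 1000 bp. Among isolated wide regions, the shorter distances thus belonged to those over 600 bp wide. The intervals of the 3 member widths overlapped those of each class from 100 to 600 bp.

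**Figure D4:**
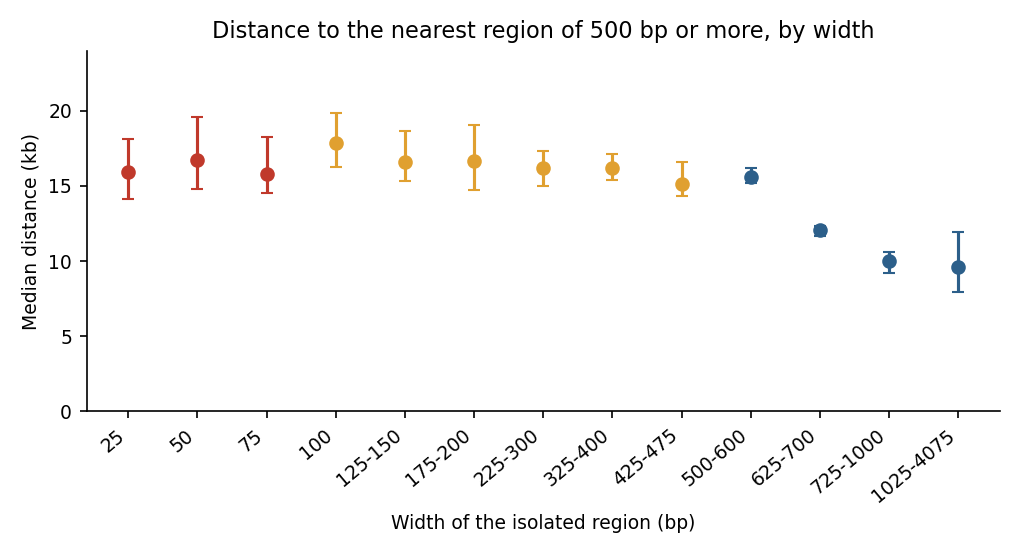
Median distance in kb from an isolated region to the nearest region of 500 bp or more (vertical axis) by the width of the isolated region in bp (horizontal axis), with 95% intervals from binomial ranks. The 3 member widths (red, 15.8 to 16.7 kb) are level with the intermediate widths (orange), and only classes over 600 bp (blue, from the second on) fall to 12.1 kb and below.

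Distances to a wide region are bound to be shorter in bins grouped for holding more of them, so members and intermediate widths were set side by side within each group. In bins with 1 to 5 wide regions, members had a median distance of 69.7 kb (54.8 to 81.0 kb) and isolated regions of 100 to 475 bp one of 64.5 kb (59.0 to 72.8 kb). With 6 to 10 the medians were 28.2 and 28.6 kb, with 11 to 20 they were 19.1 and 18.6 kb, and in the richest bins 10.4 kb (9.30 to 11.5 kb) and 10.3 kb (9.88 to 10.6 kb). In bins without a wide region they were 584 kb (485 to 728 kb, 42 members) and 647 kb (585 to 780 kb). The intervals of both classes overlapped at each density.

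Members were also placed relative to the wide regions that flank them. Of 2481 members, 2474 had a wide region on both sides, and the median distance between those flanking regions was 80.95 kb (76.9 to 85.2 kb), against 86.05 kb (84.0 to 88.2 kb) for isolated regions of 100 to 475 bp. The nearer flanking region lay at a median of 24.5% of that distance (23.4% to 25.4%). Placement at random between the 2 flanks would give a value close to 25%, apart from the 1000 bp barred at each end. For isolated regions of 100 to 475 bp it was 23.2% (22.8% to 23.7%).

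The region next to a member was wide in 57.2% of cases (55.2% to 59.2%), 100 to 475 bp in 32.4% and very short in 10.4% (9.23% to 11.7%). For isolated regions of 100 to 475 bp these shares were 58.1%, 31.8% and 10.1%. Of all autosomal regions, 54.9% were wide and 14.2% very short. The nearest region of any width was at a median of 9.83 kb from a member (8.98 to 10.5 kb), and at 10.1 kb (9.75 to 10.4 kb) from an isolated region of 100 to 475 bp. The nearest other member was at a median of 180 kb (168 to 193 kb), and 107 members (4.31%) had another within 10 kb.

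A small number of members lay far from any wide region. At over 500 kb there were 35 (1.41%, interval 0.985% to 1.96%), and at over 1000 kb there were 5 (0.202%). The farthest was a region of 25 bp on chromosome 16 (40582353 to 40582377), at 1472 kb, although a region of 300 bp lay 157 kb away. The next was a region of 75 bp on chromosome 15 (14558405 to 14558479), which was also the member farthest from any region, with 1447 kb to a region over 600 bp wide on one side and 4193 kb without a region on the other. On chromosome 2, a region of 25 bp (108530399 to 108530423) had its nearest wide region at 1206 kb and its nearest region, of 225 bp, at 1200 kb. The other members beyond 1000 kb were on chromosome 18 (75 bp wide, 1063 kb) and chromosome 12 (19797286 to 19797310, 1053 kb). The remaining 3 of the 5 members farthest from any region were on chromosome 2 (42517599 to 42517623, 961 kb), chromosome 4 (36236311 to 36236360, 871 kb) and chromosome 5 (133503646 to 133503670, 774 kb).

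At the other end of the range, 8 members lay exactly 1025 bp from a neighbour, the smallest distance the rule and the 25-bp grid allow. The first 5 in chromosome order lay on chromosome 1 (190850921 to 190850970), chromosome 8 (26852124 to 26852148), chromosome 9 (69204401 to 69204450) and, for 2 of them, chromosome 11 (78401071 to 78401095 and 79486746 to 79486795). Each of these 5 had a wide region of 525 to 650 bp as that neighbour.

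Chromosomes rich in wide regions also had more members. The autosomes together held 1.00 members per Mb (0.965 to 1.04) up to their last listed positions. The highest rate, 1.69 per Mb (1.47 to 1.94, 206 members), was that of chromosome 11, and the lowest, 0.703 (0.579 to 0.846, 112 members), that of chromosome 3, a ratio of 2.41 beside one of 2.31 between the densest and sparsest chromosomes in wide regions. Across the 19 autosomes members per Mb had a Pearson's r of 0.832 and a Spearman's rho of 0.712 with wide regions per Mb, as a description. Per 100 wide regions there were 8.97 members on all autosomes. Chromosome 13 had the most, with 12.2 (10.2 to 14.5), and chromosome 19 the fewest, with 6.59 (5.03 to 8.48). These 2 were picked as extremes of 19, and their intervals carry no allowance for that choice.

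**Figure D5:**
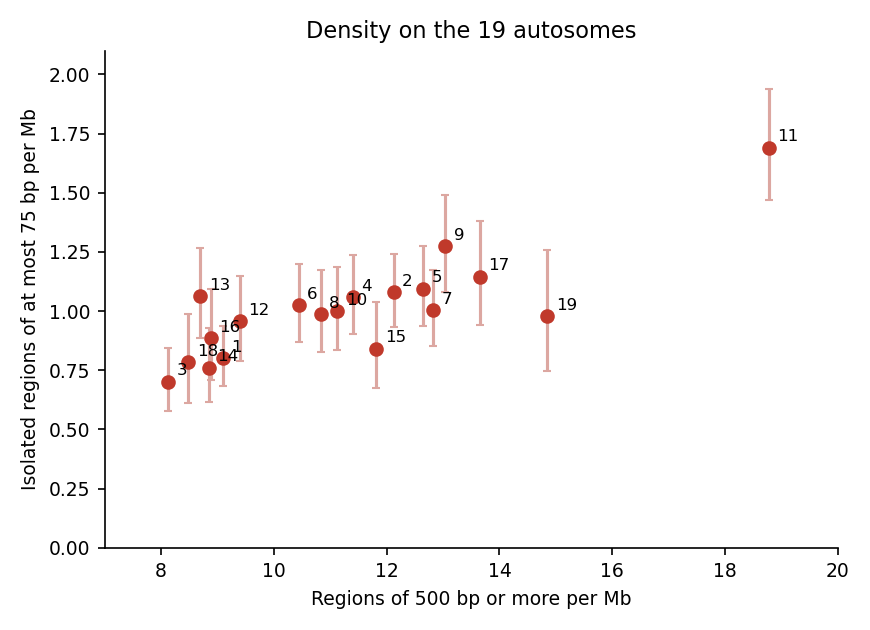
Isolated regions of at most 75 bp per Mb (vertical axis, with exact 95% Poisson intervals) against regions of 500 bp or more per Mb (horizontal axis, starting at 7) on each of the 19 autosomes, labelled by chromosome number. Chromosome 11 (1.69 per Mb) lies above the interval of each other autosome, and chromosome 3 (0.703 per Mb) is lowest.

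Members were also counted around the 6 antigen receptor loci, Tcra/Tcrd, Tcrb, Tcrg, Igh, Igk and Igl. In the 14 whole-Mb bins that hold these 6 loci there were 20 members, 1.43 per Mb (0.873 to 2.21). Per 100 wide regions there were 5.83 (3.56 to 9.01), an interval that includes the 8.97 of all autosomes. They were 3.68% of the 543 regions there (2.26% to 5.63%), beside 4.92% of all autosomal regions. Bins were assigned to loci from general knowledge of mm9, without an annotation, so a member in a bin is not assigned to a gene. In the 2 bins of Tcra/Tcrd, which encode the alpha and delta receptor chains of T cells, 6 of 193 regions were members. All 6 were in the second bin, which held 88 regions, and none of the 105 regions of the first bin was a member. They lay between 54038420 and 54730844 on chromosome 14, 1.30 to 18.3 kb from a wide region. In the 4 bins of Igh, the immunoglobulin heavy chain locus, 7 of 201 regions were members, at 5.95 to 34.7 kb from a wide region.

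The 4 bins of Igk, the immunoglobulin kappa locus, held 58 regions, 3 of them members, and 2 of these members were among the only 3 regions of the bin from 68000001 to 69000000 on chromosome 6. One of 75 bp (68319896 to 68319970) had no region within 236 kb and no wide region within 298 kb, and one of 25 bp (68556271 to 68556295) lay 62.0 kb from a wide region. The bins of Tcrb held 2 members (41480146 to 41480195 and 41496871 to 41496895, both on chromosome 6), the bin of Tcrg held 1 (19783371 to 19783395 on chromosome 13) and that of Igl held 1 (19721328 to 19721402 on chromosome 16), 127 kb from a wide region.

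The bins of 8 loci used by thymocytes held more members per Mb than the genome. There were 26 in 8 bins, 3.25 per Mb (2.12 to 4.76). These bins were mostly rich in wide regions, with 216 in all, though those of Gata3 and Ets1 held 6 and 17. The interval of this rate includes the 2.36 per Mb of bins with 21 or more wide regions. Per 100 wide regions there were 12.04 members (7.86 to 17.6). That interval includes the autosomal 8.97 but lies above the 7.62 of bins with 21 or more. The bins of Gata3 and Ets1 are outside that class, so this is not a comparison at equal density. Bins with 6 to 10 wide regions, as that of Gata3, held 10.7 members per 100, and those with 11 to 20, as that of Ets1, held 9.41. Both values lie within the interval. Members were 6.70% of the 388 regions there (4.42% to 9.66%), beside 4.92% of all autosomal regions. The bin of Cd4, which encodes the T cell co-receptor that marks helper cells, held 6 members among 60 regions, from 124362071 to 124949020 on chromosome 6. The bin of Gata3, a transcription factor of T cell development, held 4 members among 18 regions and 6 wide ones. Of these, 2 of 25 bp (9794274 to 9794298 and 9797749 to 9797773 on chromosome 2) were 3.45 kb apart, and 1 (9603299 to 9603323) was 86.0 kb from its nearest region. The bins of Bcl11b, a transcription factor of T lineage commitment, and of Cd3e/d/g, the signalling chains of the T cell receptor, held 4 members each. The bins of Rag1/Rag2, Cd8a/Cd8b1, Runx1 and Ets1 held 2 each, and with counts this low the intervals of single bins were wide (0.242 to 7.22 for 2 members).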

How the data were processed

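The members, the comparison classes and the loci were chosen with earlier results of these data known. The submitters' processing notes name Bowtie and the genome build mm9. How peaks were called, at which threshold and whether against the input is not given in the sources used here. Deposited by the authors, the file holds 912174 windows of 25 bp, with positions and no value per window. Starts were read as counted from 0 and are printed counted from 1.

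Windows with a gap of 0 bp were joined. A region belonged to the 1-Mb bin of its midpoint, and bins ran to the last listed position of a chromosome. Distances are edge to edge. Intervals are exact Poisson for rates, exact binomial for shares and ratios of rates, and binomial ranks for medians, all at 95%. The regions named by position are the 5 members farthest from a wide region, the 5 farthest from any region, the 5 nearest above the isolation limit, and the 3 bins with most members with and without wide regions, of which the bins tied at 1 member are given as a count. The steps were tested on simulated data. Alternatives varied the width limit, isolation distance, joining gap, bin length, wide limit and chromosomes. A GC and motif comparison needs mm9 sequence, which was not used here. Computation used SciPy 1.17.1, pandas 2.3.3 and NumPy 2.4.6 in Python 3.11.15, and figures matplotlib 3.10.9.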

Additional observations from a re-analysis of the deposited data

Results flagged for a closer look

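The X was outside the rule, which covers autosomes, and its regions of the same kind were counted separately. It held 54 isolated regions of at most 75 bp. This was 0.324 per Mb (exact 95% Poisson interval 0.244 to 0.423), or 0.323 times the autosomal rate (0.242 to 0.423), beside a ratio of 0.367 (0.340 to 0.396) for wide regions. Per wide region, the X had 0.880 times as many members as the autosomes (0.659 to 1.15). Of isolated regions under 500 bp on the X, 12.8% were at most 75 bp wide (9.78% to 16.4%, 421 regions), compared with 17.8% (17.1% to 18.4%) on the autosomes. These intervals did not overlap. The X had 4.11 wide regions per Mb, against 11.2 on the autosomes. The interval of its share overlapped those of autosomal bins with no wide region (13.7% to 24.2%), 1 to 5 (14.5% to 18.6%) and 6 to 10 (15.6% to 19.04%). It lay below those of bins with 11 to 20 (16.6% to 18.9%) and 21 or more (17.3% to 19.2%). Why the share was lower on the X was not tested. Members per 100 wide regions were 7.89 on the X and 13.4 in autosomal bins with 1 to 5 wide regions. The median distance to a wide region was 29.0 kb on the X (17.7 to 57.1 kb).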

How the results depend on the processing

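No paired analysis was possible because the series has 1 CTCF library and the input library was not analysed here. The number of members was 947 with a width limit of 25 bp, 4710 with 150 bp and 1225 with an isolation distance of 10000 bp. The share of bins with a member was 27.4%, 41.5%, 55.8% and 64.1% with width limits of 25, 50, 100 and 150 bp, 43.2% and 35.5% with isolation distances of 5000 and 10000 bp, 32.8% and 69.1% in bins of 0.5 and 2 Mb, and 58.1% among bins that hold a region. The median distance to a wide region was 14.96, 18.2, 23.5 and 31.5 kb with isolation distances of 500, 2000, 5000 and 10000 bp. With wide regions of at least 400 and 600 bp it was 14.5 and 24.1 kb, and with those over 600 bp 30.1 kb. It was above that of all isolated wider regions in each of these settings. Against isolated regions of 100 to 475 bp, a comparison added after seeing the data, 16.1 kb was below their median. The rate ratio of richest to poorest bins was 17.4 and 10.1 with isolation distances of 5000 and 10000 bp, 18.9 in bins of 0.5 Mb and 8.62 among bins that hold a region. All of these but the value for 0.5-Mb bins were added after seeing the data. The ratio of the excess variance of members to that of isolated wider regions was 1.24 and 1.04 with width limits of 25 and 50 bp and 1.002 with an isolation distance of 5000 bp. Leaving out each chromosome in turn gave 2275 to 2421 members, 49.2% to 50.97% of bins with a member, and a median distance of 15.7 to 16.9 kb. Width limit, isolation distance, bin length, the limit for wide regions and the removal of bins without a region shift counts, shares of bins, distances and rate ratios by construction. For the ratios of excess variance, and for shares and medians with a chromosome left out, the cause was not tested. Without heights or depth, a region of 25 bp cannot be ranked by strength, and absence from the list does not show absence of binding.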

Other observations

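The most crowded megabases differed in their number of isolated very short regions. The 2 bins with most regions of any width lay side by side on chromosome 10 and held 120 regions each. The first (79000001 to 80000000) held 73 wide regions and no member, and the second (80000001 to 81000000) held 78 wide regions and 6 members. The bin from 53000001 to 54000000 on chromosome 14, the first of Tcra/Tcrd, also had no member among 105 regions, although it held 14 very short regions with a close neighbour. These bins were chosen after their values were seen, and the difference was not tested.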
